A study of Mus musculus with 2 samples.

Results

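The authors' optimal set for mouse CH12.LX cells held 17554 binding peaks of NRF1, nuclear respiratory factor 1. The regions described here were the 1560 strong peaks among them at non-divergent promoters. They were chosen by their peak signal and position: a signal of 400 or more, a summit within 1000 bp of a protein-coding transcription start site (TSS) on chromosomes 1 to 19, and no second protein-coding TSS upstream of that start within 1000 bp on the opposite strand (a divergent, or head-to-head, promoter). The chromosomes hold 2274 peaks with a signal of 400 or more, and the other strong peaks comprised 205 at divergent promoters and 509 distal ones with no TSS within 1000 bp. Another 5798 peaks of the optimal set lay at non-divergent promoters with a signal under 400. Because the signal chose the members, signal levels, and the replicate signals behind them, are given below as a description and carry no test.

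CH12.LX is an immortalized B-cell lymphoma line, labelled female and of strain B10.H-2aH-4bp/Wts. Chromatin was precipitated with an antibody to NRF1 in 2 libraries, which the labels call biological replicates 1 and 2 and which form 1 group of 1 line. The study holds no second condition, and control libraries were not analysed here. Peaks say where the antibody enriched DNA and give no check of the labelled cell type, which would need expression values.

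NRF1 binds DNA as a dimer, and each subunit contacts one arm of a GC-rich site that is close to a palindrome. It is best known for driving nuclear genes of the mitochondrial respiratory chain, among them cytochrome c, and also acts at promoters of general housekeeping genes in CpG islands. Methylation of the CpGs in its site is known to block its binding.

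The best-studied form of the site is a 10-base consensus that allows either pyrimidine at its sixth base. Its 2 exact versions are GCGCATGCGC, which reads the same on both strands, and GCGCACGCGC, which reads GCGCGTGCGC on the other strand. Sites were sought on both strands of the 300-base RefSeq promoter window of each gene, from 250 bases before its start to 50 after it (GRCm38.p6, the assembly of mm10). Positions of sites count from that start in the promoter table, and summit positions from the gene's own 5′ end, and these starts differ for some genes. The strongest members show what the antibody recovered. For the 10 members among the 12 strongest with both a window and the summit inside it, 30 bases on the gene's strand are shown, with the 10-mer of fewest mismatches nearest the summit in capitals.
Dhx37, chr5:125434106-125434135, minus strand: cgcggctcttGCGCATGCGCaacccggaag
Pop7, chr5:137502414-137502443, minus strand: gagcggggacGCGCGTGCGCagtgcgtagc
Rps6ka5, chr12:100725332-100725361, minus strand: aggcctgcctGCGCGTGCGCaccaaagcga
Fnbp4, chr2:90745443-90745472, plus strand: ggggcgcaggCCGCATGCGCaagtgcaccg
Sf1, chr19:6363463-6363492, plus strand: tgccctccctACGCATGCGCacccctgctc
Ncapg2, chr12:116405201-116405230, plus strand: cagcagctctGCGCCTGCGCatcccgtgag
Capza2, chr6:17636895-17636924, plus strand: agctccggggGCGCGTGCGCggcggcctag
Zfp82, chr7:30072920-30072949, minus strand: agtgagtgtgGCGCATGCGCacgcggtgcg
Mvd, chr8:122443614-122443643, minus strand: accacctcctGCGCATGCGTagattccact
Ift172, chr5:31291165-31291194, minus strand: aggactcactGCGCTTGCGCacgtcctgtt
Of these, Dhx37, Pop7, Rps6ka5, Capza2 and Zfp82 hold an exact consensus, and Fnbp4, Sf1, Ncapg2, Mvd and Ift172 hold a 10-mer that departs from it at 1 base. The centre of the shown site lay 2.5 bp from the summit at Ncapg2, -2.5 bp at Sf1, -5.5 bp at Ift172, -7.5 bp at Dhx37 and 10.5 bp at Fnbp4, and the farthest of the 10 was Pop7 at 27.5 bp.

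The strongest member was at Dhx37, an RNA helicase of ribosome assembly, with a signal of 703.33 in the optimal set, 346.23 in replicate 1 and 361.42 in replicate 2. Pop7, a protein subunit of ribonuclease P, followed with 336.13 and 366.34 in replicates 1 and 2. Rps6ka5, a kinase of the stress and growth factor response, had 326.64 and 367.35. The order of these genes depended on the replicate, since Dhx37 ranked 2 in replicate 1 and 4 in replicate 2 while Rps6ka5 ranked 70 and 1. Fnbp4, a formin-binding protein, had 344.33 and 347.65. Sf1, the splicing factor that binds the branch point, had 323.46 and 363.11, and Ncapg2, a condensin II subunit, had 349.6 and 336.87. Ncapg2 had the highest replicate 1 signal of all members and ranked 67 in replicate 2. The other 6 of the 12 strongest were Capza2 (actin capping), Zfp82 (a zinc finger gene), Mvd (mevalonate pathway), Ift172 (ciliary transport), Pdxdc1 and Nelfcd (a subunit of the factor that pauses RNA polymerase II), with optimal-set signals between 673.46 and 679.08.

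Over the 1560 members the signal ran from 400.44 to 703.33, with a median of 542.37. Replicate 1 signals had a median of 273.4 and replicate 2 signals a median of 270.87, and each member had a peak in both replicate lists. Replicate 2 was the higher for 691 members. The largest difference between the replicates was 1.40-fold, and Spearman's rho across the 1560 members was 0.906. That correlation is across peaks of the same 2 libraries, and peaks are not replicates. Of the members, 1487 (95.3%) ranked among the top 2274 peaks of both replicates taken alone. The members farthest from equal signal were Kxd1 (277.38 in replicate 1, 198 in replicate 2), Kdm4a (236.18 and 171.42) and Arl5a (246.06 and 184.37) on one side. Specc1l (184.78 and 238.93), Dtl (193.69 and 235.49) and Pcif1 (199.61 and 239.79) lay on the other side. Among weaker peaks at non-divergent promoters the median log2 ratio of replicate 2 over replicate 1 was -0.23, against -0.01 among members, so the replicates were level at the strong peaks and replicate 1 was, on median, the higher at the weaker ones.

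**Figure D1:**
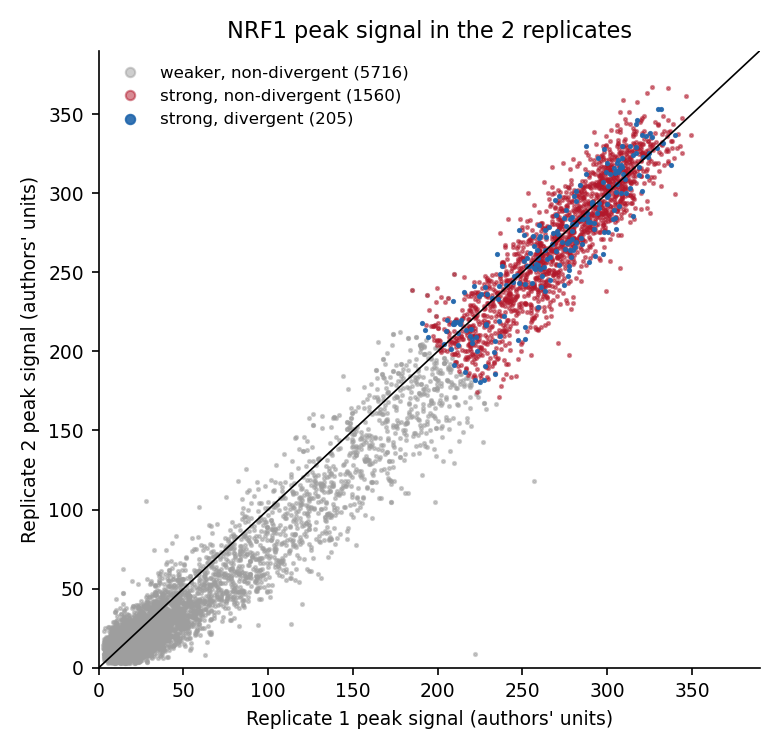
Peak signal in replicate 1 (x axis) and replicate 2 (y axis), in the units of the authors' caller, with 1 point per promoter peak and the line of equal signal. The 1560 members lie along the line between 184.78 and 349.6 in replicate 1, overlapping the 205 strong peaks at divergent promoters, and the median log2 ratio of replicate 2 over replicate 1 among weaker peaks is -0.23.

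The signal of 400 is a point on a continuous scale. Just inside it were Tmx4 (401.82), Zfp68 (401.44), Paxip1 (401.32) and Trim59 (400.44), and just outside it Abcd3 (399.69), Ip6k2 (399.64), Bicd2 (399.41) and Irf2bp2 (399.41). Of these 8, Ip6k2 had 234.15 in replicate 1 and 166.8 in replicate 2, a wider gap than the step across the limit.

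Exact NRF1 sites were common in the members' promoters. Of 1552 member genes, 1277 had a promoter window with its start within 1000 bp of the summit. Of these, 326 (25.5%) held an exact consensus, against 3.55% of all 14827 promoter windows and 63 of 3593 (1.75%) at weaker non-divergent peaks. With at most 1 mismatch, 896 of 1277 members had a site (70.2%, 95% Wilson interval 67.6 to 72.6%), against 13.9% of all windows. At weaker peaks the count was 475 of 3593 (13.2%, 12.2 to 14.4%). The odds ratio was 15.4 and the adjusted p = 4.02e-311 (Fisher's exact test, two-sided, Benjamini-Hochberg over 5 tests). Peaks of the same libraries are not replicates, so the intervals and p-values hold for counting error alone.

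The promoter window misses part of the weaker peaks, since the summit fell inside it for 83.1% of members and 64.4% of weaker peaks. Within 50 bp of the summit on either side, for the 851 members and 1597 weaker peaks whose window held that stretch whole, a site with at most 1 mismatch was present at 79.3% of members and 16.0% of weaker peaks. With at most 2 mismatches these shares were 95.5% and 48.7%. Among CpG-rich windows, with observed over expected CpG above 0.6, a site with at most 1 mismatch was present in 72.9% of member windows and 14.8% of windows at weaker peaks.

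For strong peaks at divergent promoters no difference in site share was detected. A site with at most 1 mismatch was present in 112 of 162 of their windows (69.1%, 61.6 to 75.7%). The difference of 1.03 percentage points in favour of members had a 95% interval from -6.05 to 8.91 and an adjusted p = 0.785 (Fisher's exact test), so differences of several points in either direction are compatible with these counts. Exact sites were at 25.5% of members and 30.9% of the divergent windows.

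Sites were also more frequent among members of higher signal. From the class of 400 to 450 to that of 650 to 710, the share of windows with an exact site went from 16.0% to 45.5%, and with at most 1 mismatch from 55.8% to 90.9%. The classes between 400 and 550 did not separate for the exact site, with shares of 16.0%, 17.4% and 17.3% and overlapping intervals. Median signals were 580.68 for the 326 members with an exact site, 550.25 for the 570 with a 1-mismatch site only and 506.73 for the 381 with neither. The signal takes part in the rule, so this trend is a description. The window held the 50 bp on either side of the summit whole for only 141 of the 381 with neither. At the others of the 381 the bases around the summit were not all searched.

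**Figure D2:**
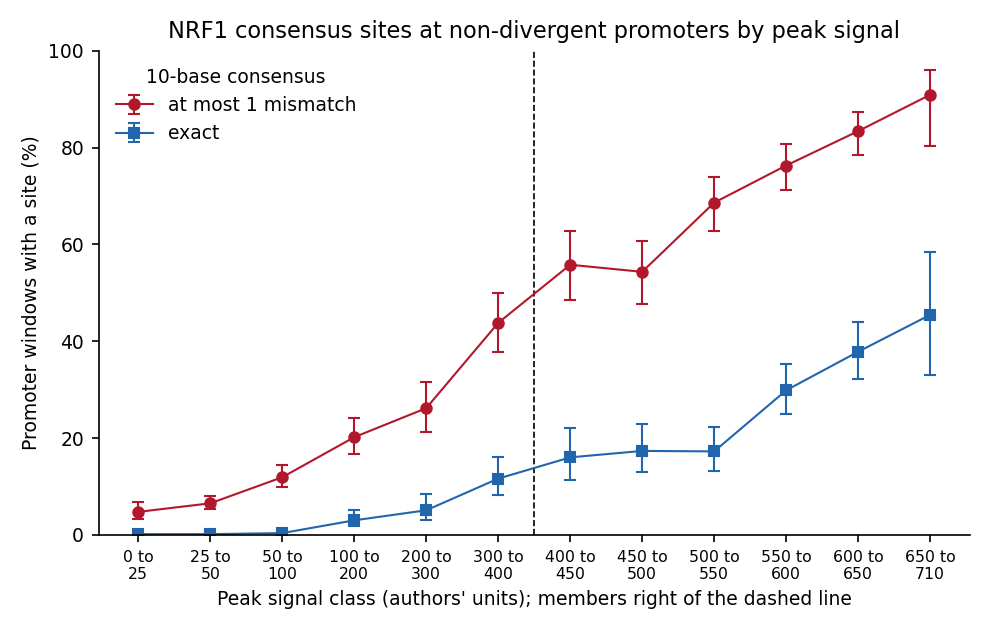
Share of promoter windows (y axis, %) with an exact NRF1 consensus (squares) or one with at most 1 mismatch (circles), by class of peak signal at non-divergent promoters (x axis), with 95% Wilson intervals. The exact share rises from 0.159% under a signal of 25 to 45.5% at 650 to 710, and members lie right of the dashed line at 400.

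Seen from the sequence, 526 promoter windows held an exact site, and 326 of them (62.0%) belonged to a member. A further 63 lay at a weaker non-divergent peak, 50 at a strong divergent peak, 5 at a weaker divergent peak, and 47 belonged to genes whose start was within 1000 bp of a summit that was nearer to another start. Only 35 of the 526 (6.65%) had no summit of the optimal set within 1000 bp. Of these 35 windows 80.0% were CpG-rich, against 96.9% of the 326 member windows with an exact site and 26.3% of all 8803 windows without a summit.

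The most frequent 10-mer in member windows was not an exact consensus. GCGCAGGCGC (GCGCCTGCGC on the other strand), which departs from the consensus at 1 base, was in 286 member windows, ahead of GCGCACGCGC in 196 and GCGCATGCGC in 145. Next came ACGCATGCGC in 106, GCGCAAGCGC in 69 and GAGCATGCGC in 64. The rest of the 41 different 10-mers within 1 mismatch were each in 34 member windows or fewer.

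The 10-mers differed in how often they lay at a member. Only windows with no other site within 1 mismatch were counted, so that each window speaks for 1 sequence. ACGCATGCGC lay at a member in 64 of 90 windows (71.1%, 61.0 to 79.5%), GCGCATGCGC in 86 of 133 (64.7%, 56.2 to 72.3%) and GAGCATGCGC in 41 of 62 (66.1%, 53.7 to 76.7%). GCGCAGGCGC did so in 201 of 352 (57.1%, 51.9 to 62.2%) and GCGCACGCGC in 110 of 196 (56.1%, 49.1 to 62.9%). These 5 intervals overlap, so their order is not resolved. Far lower were GCGCGCGCGC with 9 of 75 windows (12.0%, 6.44 to 21.3%) and GCGCCCGCGC with 8 of 77 (10.4%, 5.36 to 19.2%). GCGCACGCCC lay at a member in 2 of 35 windows (5.71%), GCGCGAGCGC in 1 of 33 (3.03%) and GCCCACGCGC in 0 of 29, which allows a share of up to 10.3%. Of all 14827 windows, whatever their sequence, 1277 belonged to a member, and the intervals of these low 10-mers hold that share. A single base thus separated sequences found mostly at members from sequences whose share of members was not set apart from that of all windows. Each window counted for a 10-mer held it at 1 mismatch or less. No optimal-set summit lay within 1000 bp at 15 of 75 GCGCGCGCGC windows, 34 of 77 of GCGCCCGCGC and 13 of 35 of GCGCACGCCC. The same held at 10 of 33 windows of GCGCGAGCGC and 16 of 29 of GCCCACGCGC, against 8803 of all 14827. Windows without a summit were thus less frequent at these 10-mers, least clearly at GCCCACGCGC. Of the 8803, 26.3% were CpG-rich, so all windows are not a matched comparison.

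The strongest members whose windows held only GCGCAGGCGC among sites within 1 mismatch are shown to make that frequent form visible, with the 10-mer in capitals (a set added after values were seen).
Ncapg2, chr12:116405201-116405230, plus strand: cagcagctctGCGCCTGCGCatcccgtgag
Fam222b, chr11:78094609-78094638, plus strand: ggagcgaggtGCGCAGGCGCtgactgccgg
Gatd3a, chr10:78169839-78169868, minus strand: gtcggtcactGCGCAGGCGCggccccaccc
Rfesd, chr13:76018704-76018733, minus strand: aactcgcgtcGCGCAGGCGCaggacgcagg
Arpc1a, chr5:145083816-145083845, plus strand: cggccgctctGCGCAGGCGCtccggtcact
Their optimal-set signals were 681.87, 659.43, 658.68, 657.06 and 656.03 in that order, in the upper quartile of the members, which began at 596.25. In replicates 1 and 2, Gatd3a had 331.99 and 331, Rfesd 332.55 and 330.14, and Fam222b 335.3 and 327.61. Ncapg2 had 349.6 and 336.87 and Arpc1a 339.13 and 322.18, so replicate 1 was the higher at all 5.

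Members without a site within 1 mismatch numbered 381 of 1277. The 5 strongest by signal were Pdxdc1 (673.77), Tedc1 (670.5), Hmgn1 (660.65), Pafah1b1 (655.07) and Nr1d2 (650.71). At 4 of them the summit fell outside the promoter window, so the bases under the peak were not searched. At Tedc1 the summit lay at -250 bp, the first base of the window, so the bases upstream of it were not searched either. For 141 of the members without such a site the window held the 50 bp on either side of the summit whole. Within it 115 of the 141 had a 10-mer at 2 mismatches. Such loose matches are common: 48.7% of weaker peaks had a 10-mer within 2 mismatches in that stretch, closer sites included. Weaker peaks without a closer site were not counted apart, so the 115 are a description. The 5 strongest of the 141 (also a set added after values were seen) are shown with that 10-mer, the one nearest the summit, in capitals.
Ndufb10, chr17:24724431-24724460, minus strand: gctgcccactACGCAGGCGCagctgtcacc
Gdpd1, chr11:87074129-87074158, minus strand: cccctttgttGCTCGGGCGCtggggtcggg
Usp8, chr2:126707204-126707233, plus strand: tgtccttccgACGCATGCTCaggccggttc
Kdsr, chr1:106759805-106759834, minus strand: cgcacagcctGCGCAGCCGCagcctgaagc
Bbs2, chr8:94098525-94098554, minus strand: gggagggtccGCGCAGGCGTagagagagtt
Ndufb10, a complex I subunit, had a signal of 643.8, and Bbs2, a subunit of the ciliary BBSome, had 633.15. The most frequent 2-mismatch 10-mer among the 141 was GCGCAGCCGC, in 18 of them, followed by ACGCAGGCGC in 12 and ACGCCTGCGC in 10.

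Sites lay under the summit. For the 319 members with an exact site and the summit both in the window, the median distance from the site's centre to the summit was 11.5 bp, and 71.2% (66.0 to 75.9%) were within 20 bp. For the 543 members with a 1-mismatch site only, the median was 9.5 bp and 79.9% were within 20 bp. At weaker peaks 44 of 59 exact sites (74.6%, 62.2 to 83.9%) and 199 of 343 1-mismatch sites (58.0%, 52.7 to 63.1%) were within 20 bp. At strong divergent peaks these counts were 28 of 48 (58.3%) and 48 of 59 (81.4%), so closeness to the summit was not particular to members. Exact sites had a median position of -45.5 bp from the start. Of the 326 members 265 (81.3%) had the site upstream, as did 54 of 63 weaker peaks (85.7%), in windows that hold 250 of their 300 bases upstream.

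**Figure D3:**
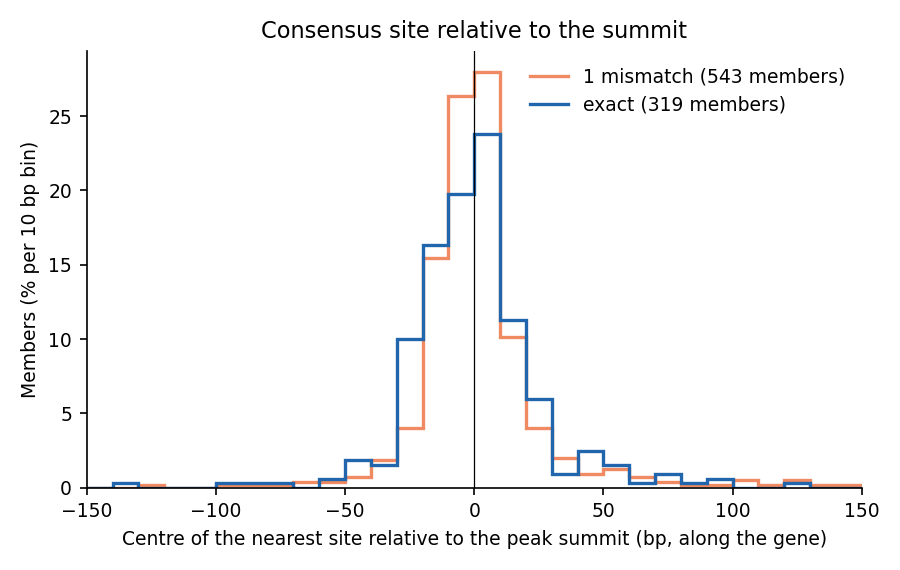
Centre of the nearest NRF1 site relative to the peak summit (x axis, bp along the gene's direction), as the share of members per 10 bp bin (y axis, %), for 319 members with an exact site and 543 with a 1-mismatch site only. Both lines peak within 10 bp of the summit.

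No preferred direction of the site was detected. Of 366 exact sites in member windows 148 were the palindromic form, and of the other 218 oriented ones 113 (51.8%, 45.2 to 58.4%) read 5′ to 3′ along the gene. With 1-mismatch sites included, 221 of 427 oriented sites (51.8%, 47.02 to 56.5%) did. The frequent GCGCAGGCGC is 1 base from the consensus on either strand and has no direction in this count.

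Most member promoters held 1 exact site or none. At least 2 exact sites were in 35 of 1277 windows (2.74%), and 3 of them in 5 windows. With at most 1 mismatch, 277 windows (21.7%) held 2 or more sites. At strong divergent peaks 7 of 162 windows (4.32%) held at least 2 exact sites. With at most 1 mismatch, 31 of the 162 (19.1%, 13.8 to 25.9%) did. At weaker peaks these shares were 0.0557% and 3.31%, so several sites were not particular to members among strong peaks. The 5 member promoters with 3 exact sites belonged to Capza2, Zc3h8, Nup50 (a nucleoporin), Pds5b (a regulator of cohesin) and Upf1 (the helicase of nonsense-mediated decay). Their signals were 679.08, 613.94, 609.02, 603.35 and 542.33, so Upf1, with as many exact sites as Capza2, lay at the median of all members. The 250 bases upstream of the start of Nup50 show the spread of 3 exact sites, in capitals, along 1 promoter (chr15:84923178-84923427, plus strand).
Nup50: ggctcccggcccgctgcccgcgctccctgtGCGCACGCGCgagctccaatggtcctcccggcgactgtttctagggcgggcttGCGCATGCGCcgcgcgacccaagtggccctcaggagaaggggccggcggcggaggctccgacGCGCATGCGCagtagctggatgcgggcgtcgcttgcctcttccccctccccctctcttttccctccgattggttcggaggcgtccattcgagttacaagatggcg
At Pds5b a pair of the exact sites overlaps, and the 30 bases around each of that pair are shown on the gene's strand.
Pds5b, chr5:150673647-150673676, plus strand: gggctgaggaGCGCGTGCGCacgcgcctga
Pds5b, chr5:150673653-150673682, plus strand: aggagcgcgtGCGCACGCGCctgagcgaga
Across members there were 40 pairs of neighbouring exact sites, with a median spacing of 45 bp, and 10 of the pairs overlapped. Replicate signals at Nup50 were 306.97 and 305.75, at Pds5b 314.04 and 293.73, and at Upf1 269.67 and 275.07. The median signal was 581.36 over the 291 genes with 1 exact site, 569.81 over the 30 with 2 and 609.02 over the 5 with 3, with overlapping quartiles for 1 and 2 sites.

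Other promoter elements were searched in the same windows on both strands. The ETS family motif CCGGAAG was in 21.6% of member windows and 20.5% of windows at weaker peaks, and the YY1 motif ATGGCGGC in 6.89% and 6.96%. The intervals of members and weaker peaks overlapped for both motifs, and over all 14827 windows the shares were 12.5% and 3.43%. The CCAAT motif of NFY was in 33.5% of member windows (31.0 to 36.2%) and 41.0% at weaker peaks (39.4 to 42.6%), against 39.4% of all windows. The SP family motif GGGGCGGGG was in 23.2% (20.9 to 25.6%) and 26.6% (25.2 to 28.0%), against 16.3% of all windows. A TATAAA box was searched on the gene's strand between 40 and 16 bases upstream of the start. It was in 6 member windows (0.470%, 0.216 to 1.02%), against 3.01% of all windows. At weaker peaks the share was 0.807% (0.563 to 1.16%) and at strong divergent peaks 0.617%. These intervals overlap that of members, so the low share was not particular to members. Member windows had a median observed over expected CpG of 0.863, and 91.5% exceeded 0.6, against 83.5% at weaker peaks and 26.3% where no summit lay within 1000 bp.

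Member summits clustered at and just before the start. The median summit lay at -17 bp, with quartiles at -74 and 33 bp, and the median distance was 57 bp, against 130 bp for weaker peaks. Members and weaker peaks met the same rule on position, and only the signal set them apart. Of the members 1030 of 1560 (66.0%, 63.6 to 68.3%) were within 100 bp of the start, against 2534 of 5798 weaker peaks (43.7%, 42.43 to 44.99%). The odds ratio was 2.50, with an adjusted p = 2.02e-55 (Fisher's exact test). The summit was upstream of the start at 926 members (59.4%, 56.9 to 61.8%) and at 2535 weaker peaks (43.7%, 42.45 to 45.003%), with an odds ratio of 1.88 and an adjusted p = 7.56e-28 (Fisher's exact test). When upstream meant by at least 50 bp, the shares were 34.2% and 30.9%, a difference of 3.32 points against 15.6 for any distance. The 3.32 points are a net value. Members had the larger share from -100 to -50 bp (15.8% against 8.92%) and from -150 to -100 bp (7.63% against 5.57%). Farther upstream than 200 bp, weaker peaks had the larger share in most 50 bp bins. Summits more than 200 bp inside the gene made up 13.1% of members and 26.8% of weaker peaks. Peak widths differed too. Both quartiles and the median were 344 bp at weaker peaks, and members had quartiles of 311 and 385 bp with a median of 337 bp. Whether the width bears on how exactly summits were placed was not tested.

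At divergent promoters, 155 of 205 strong peaks (75.6%, 69.3 to 81.0%) had the summit within 100 bp of the nearer start, and 174 (84.9%) within 200 bp, against 66.0% and 80.1% of members. A divergent promoter offers a pair of starts and the nearer was used, so the shorter distance is partly built into the grouping and the values are a description.

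**Figure D4:**
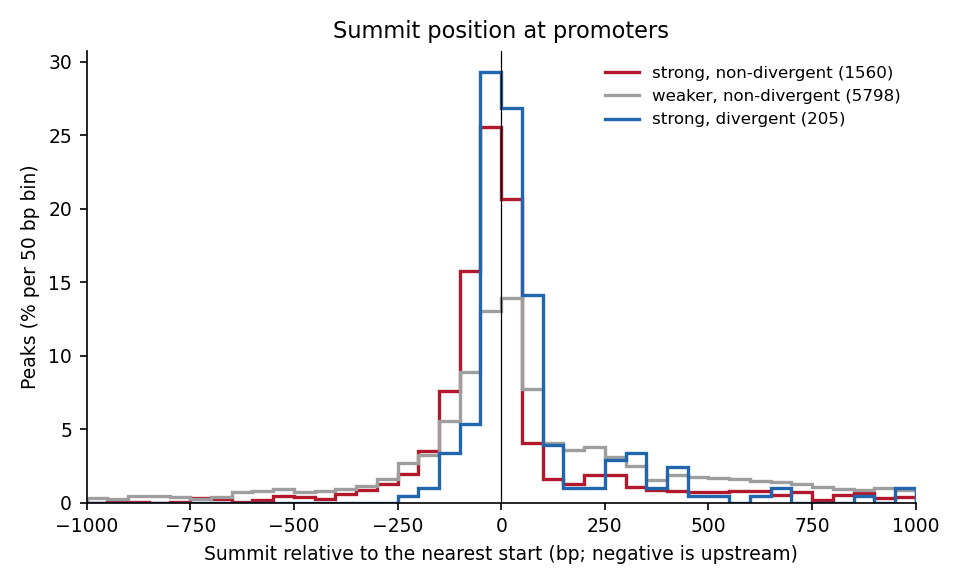
Summit position relative to the nearest protein-coding start (x axis, bp, negative upstream), as the share of peaks per 50 bp bin (y axis, %), for 1560 members, 5798 weaker peaks at non-divergent promoters and 205 strong peaks at divergent promoters. Members peak in the bin just upstream of the start with 25.6% of peaks, and weaker peaks have a longer tail inside the gene.

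A few members lay far from the annotated start. The farthest upstream were Smim27 (-949 bp), Rap2a (-895 bp), Kmt2c (-800 bp) and Pgbd5 (-747 bp). The farthest inside the gene were Rftn1 (996 bp), Eif4e (982 bp), Ireb2 (975 bp) and Hbp1 (968 bp). For Eif4e, the cap-binding translation factor, the promoter table gives another start, and from it a 1-mismatch site lay at -95.5 bp and -0.5 bp from the summit. With the nearest of all RefSeq starts used in place of the gene's 5′ end, 71.4% of members and 51.7% of weaker peaks were within 100 bp. At 8 genes 2 members were present: Ago1, Bcl7b, Cdc42, Gpr19, Pcif1, Prpf4b, Sf1 and Suv39h2. At Sf1 the summits lay at -193 and 894 bp, with signals of 685.08 and 637.17, and the second was 309.34 in replicate 1 and 329.85 in replicate 2.

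The genes behind the members were read by families of gene symbols listed with each role. Over all 20364 protein-coding genes 7.62% had a member, a background that includes large families with almost no peaks, such as 1099 olfactory receptor genes with 0 members, which allows a share of up to 0.273%. Shares lay above 7.62% in 26 of 32 families, and the families are given by their counts and intervals with no test. Together they held 258 (16.6%) of the 1552 member genes. Families also differed in having any summit of the optimal set within 1000 bp, strong or weak. It was present at 67 of 78 respiratory chain genes, 63 of 80 cytosolic ribosomal protein genes and 183 of 387 Zfp genes. Over all 14827 promoter windows, a smaller set than the 20364 genes from which the families were drawn, 8803 had none. The share over all 20364 genes is not given. A share above 7.62% is therefore not by itself particular to strong peaks.

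Mitochondrial families are described first, as the role for which NRF1 is best known, and this order is not a ranking by share. Of 78 genes of the respiratory chain and ATP synthase, 25 had a member (32.1%, 22.7 to 43.0%). In complex I, which takes electrons from NADH, these were Ndufb10, Ndufa6, Ndufa13, Ndufb6, Ndufs8, Ndufa12, Ndufb7, Ndufs5, Ndufb8, Ndufc1, Ndufa9 and Ndufv1. Complex II had Sdhb, and complex III had Uqcrc1 and Uqcr11. The carrier cytochrome c (Cycs), complex IV and its supercomplexes with Cox6a1, Cox6c, Cox5b and Cox7a2l, and the ATP synthase with Atp5j, Atp5g2, Atp5mpl, Atp5o and Atp5k made up the rest. Uqcrc1, a core subunit of complex III, was the strongest at 658.58, with 334.53 in replicate 1 and 326.64 in replicate 2. Cycs, the textbook NRF1 target, was near the lower limit at 409.23 in the optimal set, with 211.67 in replicate 1 and 199.58 in replicate 2. The median signal of the 25 was 544.58, beside 542.37 over all members.

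Among other mitochondrial groups, 7 of 27 import translocase genes (25.9%, 13.2 to 44.7%) and 13 of 78 mitochondrial ribosomal protein genes (16.7%, 10.01 to 26.5%) had a member. Grpel1, a cochaperone of the import motor, led the first at 521.66 and Mrpl9 the second at 628.52. Carriers of the inner membrane had 2 of 43 (4.65%, 1.28 to 15.5%), the phosphate carrier Slc25a3 and the dicarboxylate carrier Slc25a10. The respiratory chain interval lay above that of the carriers, and the carrier interval holds the background.

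Translation families also held many members. Aminoacyl-tRNA synthetases, which charge tRNAs, had 11 of 36 (30.6%, 18.004 to 46.9%). Of these Vars2, Yars2, Mars2, Rars2, Pars2 and Wars2 are the mitochondrial enzymes and Farsb, Farsa, Gars, Tars and Sars the others, and Vars2 was the strongest at 628.97. Initiation factors had 11 of 53 (20.8%, 12.0 to 33.5%), led by Eif3a at 620.42, and cytosolic ribosomal proteins 13 of 80 (16.2%, 9.75 to 25.8%), led by Rps12 at 554.42.

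In RNA processing and transcription, 12 of 47 spliceosome genes (25.5%, 15.3 to 39.5%), 11 of 51 DEAD and DEAH box helicases (21.6%, 12.5 to 34.6%) and 9 of 28 Mediator subunits (32.1%, 17.9 to 50.7%) had a member. Prpf3 (634.1), Dhx37 and Med26 (626.4) were their strongest. RNA polymerase subunits had 4 of 28 (14.3%, 5.70 to 31.5%), Polr2j (669.26), Polrmt, Polr2e and Polr2a, and Polrmt is the polymerase that transcribes mitochondrial DNA. The RNA exosome had 2 of 10 (20%, 5.67 to 50.98%), Exosc2 (579.98) and Exosc10, and all 10 genes had some optimal-set summit within 1000 bp of the start. The polymerase and exosome intervals hold the background. The 387 Zfp zinc finger genes had 40 members (10.3%, 7.68 to 13.8%), the largest number of any family but a share near the background.

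In protein turnover and traffic the shares ranged from near the 7.62% background to above it. Ubiquitin-conjugating enzymes and Usp proteases had 17 of 85 (20%, 12.9 to 29.7%), led by Usp8 at 642.41. Autophagy Atg genes had 4 of 17 (23.5%, 9.56 to 47.3%), Atg4d (642.34), Atg10, Atg7 and Atg5, and proteasome genes 5 of 47 (10.6%, 4.63 to 22.6%), led by Psmc4 at 629.91. DnaJ co-chaperones had 5 of 45 (11.1%, 4.84 to 23.5%), led by Dnaja3 (643.27). Coat and Sec genes had 12 of 51 (23.5%, 14.0 to 36.8%), led by Sec24c (603.67), Rab GTPases 9 of 55 (16.4%, 8.86 to 28.3%), led by Rab35 (645.05), and Vps genes 4 of 34 (11.8%, 4.67 to 26.6%), led by Vps8 (626.84). The proteasome, DnaJ and Vps intervals hold the background, so those counts are not a result about the members.

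In genome maintenance, replication genes had 7 of 38 (18.4%, 9.22 to 33.4%), led by Pola2 (659.25), a subunit of the polymerase that starts DNA synthesis, and repair genes 6 of 35 (17.1%, 8.10 to 32.7%). Nucleoporins had 5 of 20 (25%, 11.2 to 46.9%), led by Nup107 (616.64). Centrosome and centromere genes had 13 of 56 (23.2%, 14.1 to 35.8%), led by Cep295 (671.32). Condensin and cohesin genes had 3 of 14 (21.4%, 7.57 to 47.6%), namely Ncapg2, Ncaph and Smc6. Intraflagellar transport and BBSome genes had 3 of 22 (13.6%, 4.75 to 33.3%), namely Ift172, Bbs2 and Bbs9, and kinesins 4 of 37 (10.8%, 4.29 to 24.7%), led by Kif5b (617.83). The intervals of these last 3 families hold the background.

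Families of other roles had few members or none. Of 11 genes of B cell identity 0 had a member, which allows a share of up to 27.3%, although 4 had some summit of the optimal set within 1000 bp. None of 108 keratin genes and none of 39 Hox genes had a member, which allows up to 2.78% and 7.69%. The B cell interval (0 to 25.9%) and the Hox interval (0 to 8.97%) hold the 7.62% background, so those counts are not a result about the members. Of 93 cytochrome P450 genes only Cyp20a1 had a member, with a signal of 578.71.

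**Figure D5:**
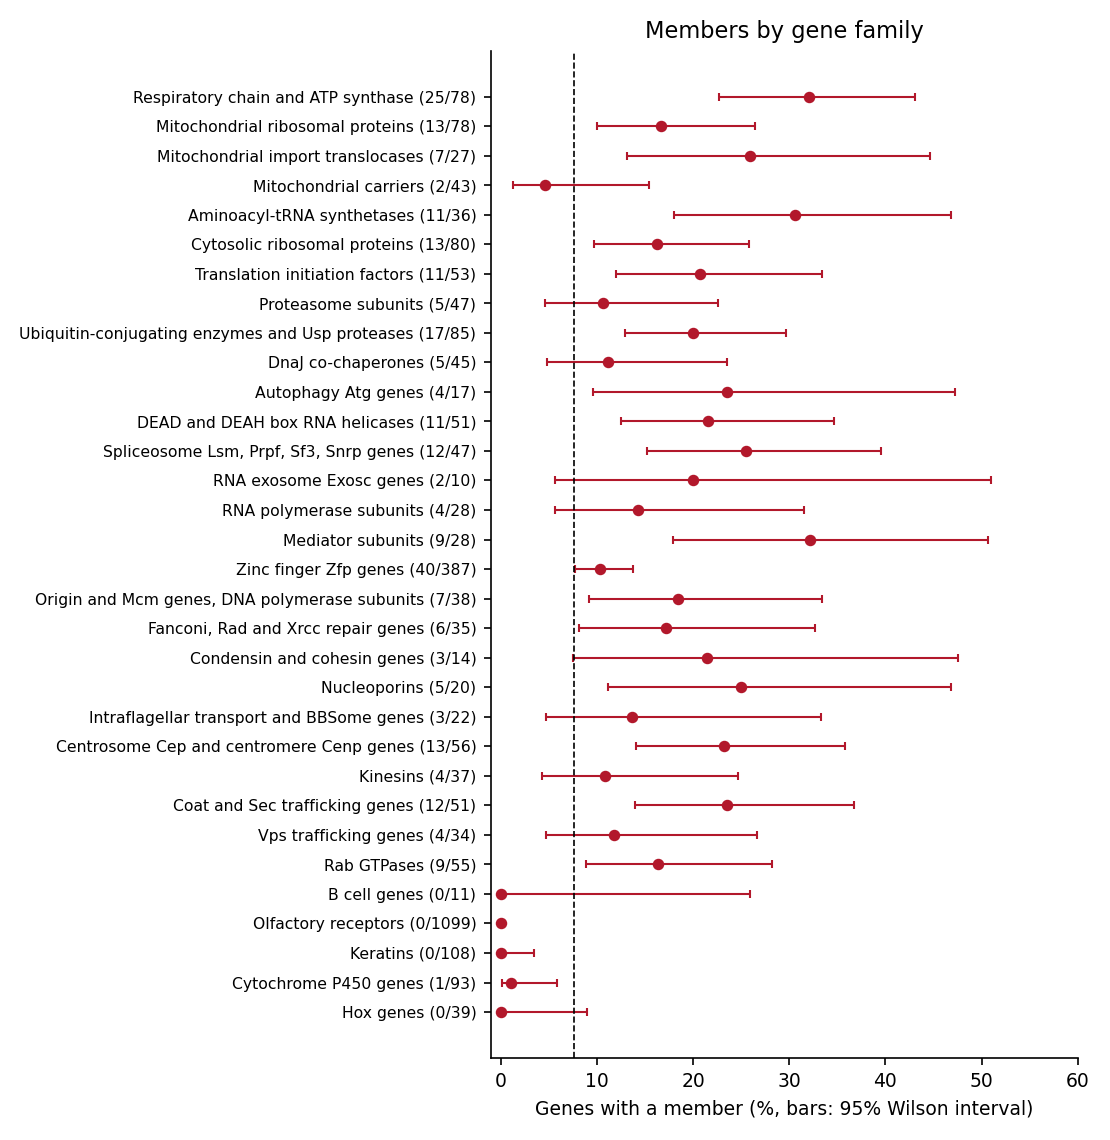
Share of the genes of each family with a member (x axis, %, with 95% Wilson intervals) for 32 families (y axis, with members over genes), and a dashed line at the 7.62% of all protein-coding genes. The respiratory chain, Mediator and aminoacyl-tRNA synthetase families lie highest, at 32.1%, 32.1% and 30.6%, and olfactory receptors, keratins, Hox and B cell genes are at 0.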

How the data were processed

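The peak lists of 2 NRF1 ChIP-seq libraries were used as the authors deposited them. Per the deposited text files, a relaxed list was called on mm10 for each replicate with a control, and an optimal and a conservative set were selected from these by irreproducible discovery rate, which measures how far peak ranks recur between replicates. The aligner, caller and settings were not given in the sources used here, depth is unknown, and p-values measure only counts of peaks. The deposited signal of each peak is in the caller's own units, whose scaling is not given, and the deposited rank score reaches 1000, the value of all 1560 members.

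Each protein-coding gene got 1 start, its 5′ end in the RefSeq gene table (GRCm38.p6). Strands came from the RefSeq promoter table (16457 genes) or GENCODE by symbol or synonym (3538 and 369), and 301 of 20665 genes without a strand were left out. A summit took its nearest start. Replicate values are those of the replicate-list peak at the same place. Promoter windows were RefSeq's, matched by gene ID, and the site was the 10-base consensus with at most 1 mismatch on either strand. Site shares used 1 peak per gene, and comparisons of summit position used every peak. The 5 comparisons used two-sided Fisher's exact tests adjusted by Benjamini-Hochberg (threshold 0.05), with 95% Wilson intervals for shares and Newcombe intervals for differences (Python 3.11.15, SciPy 1.17.1, pandas 2.3.3). The comparison of summit distance with divergent promoters, 1 of the 5, is given without its p because the grouping fixes part of it. The programs were tested on simulated sequences. Alternatives varied the signal minimum, distances, partner definition, site definition, peak set and replicate.

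The members, families and tests were chosen with earlier results of these data known. Genes were named by rule: the 12 strongest members, 4 on each side of the signal of 400, the strongest of each family (1 is not reported here), the 5 with most exact sites, the 4 farthest from the start on each side, the 3 with the most unequal replicates on each side, and the 5 strongest without a site. The members with only GCGCAGGCGC, those with the 2-mismatch 10-mers and the other family members were named after values were seen.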

Additional observations from a re-analysis of the deposited data

How the results depend on the processing

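The number of members was 1560 and stayed within 1.5 times of it under all 11 alternatives, from 1059 (signal 500 or more) to 1907 (signal 300 or more). A partner on either side of the start gave 1463, and the conservative set gave 1560. The conservative set held every member, so it gave no separate check of this count. The comparisons with strong divergent peaks were also unchanged in it. With only 1 replicate's list, taking as many top peaks, the number was 1563 without replicate 1 and 1562 without replicate 2. Of their genes, 1521 and 1509 were shared with the 1552 member genes. Of 74 alternative values over all results, 70 kept their direction and side of the threshold or moved by less than their interval or 1.5 times. The difference in site share between members and strong divergent promoters, 1.03 points and past no threshold, turned to -5.34 points with the exact consensus (adjusted p = 0.155) and to -0.454 points without replicate 2 (0.743 without replicate 1), where Fisher's exact test gave adjusted p-values from 0.155 to 1 over all alternatives. The share of summits near the start, given without a test above, differed between members and divergent promoters by -9.58 points within 100 bp and -4.81 points within 200 bp. Windows with at least 2 sites went from 2.74% to 21.7% when 1 mismatch was allowed. Windows of 50 bp on either side of the summit, CpG-rich windows, RefSeq starts and, for the 5 tests, partners on either side were chosen after seeing the data. The window of double width was not run, because the promoter table holds 300 bases. No paired analysis was possible because the series has 1 group. From each replicate's list alone (without replicate 1, then without replicate 2), the site share was 70.1% and 69.7% at members and 13.1% and 13.3% at weaker peaks, and the share of member summits within 100 bp was 64.9% and 65.6%. Without read counts the depth behind these peaks is unknown, and peaks under the authors' selection are not in the optimal set.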
